A study of Mus musculus with 9 samples.

Results

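Mast cell and basophil genes were followed in sorted marrow progenitor cells of mice during acute myeloid leukemia. The genes considered were Cpa3, Mcpt8, Ms4a2, Fcer1a, Hdc, Il1rl1 and Hgf, and their probe sets were taken by name alone: every probe set that the platform annotation gives to that symbol and to no other gene. Of the 45037 probe sets on the array, 10 met this rule, and they stand for 6 of the 7 genes. Il1rl1, the receptor for interleukin 33, had no probe set named for it alone among those used and its level was not analysed here.

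Mast cells and basophils are myeloid cells that grow from progenitors in the marrow. They bind IgE through a high-affinity receptor of an alpha chain, encoded by Fcer1a, a beta chain, encoded by Ms4a2, and a shared gamma chain, and cross-linking of that receptor empties granules that hold histamine and proteases. Transcripts of some granule genes, Cpa3 above all, are known to be made in early blood progenitors before the granules themselves appear.

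The cells came from bone marrow of C57BL/6 mice aged 8 weeks and were sorted as CD45.1+ LKS+, a fraction (negative for lineage markers, positive for Kit and Sca-1) that holds stem and multipotent progenitor cells and that the series describes as normal cells. CD45.1 is an allele of a leukocyte surface protein by which cells of a given donor are told apart. There were 3 groups of 3 arrays each: control mice, leukemia mice at day 7 and leukemia mice at day 14. The labels give neither the agent that caused the leukemia nor the time point of the controls, and they call the replicates biological without saying that each came from its own animal, so p-values measure the spread between these samples.

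The values are the authors' normalized intensities on a linear scale, measured on 9 Affymetrix arrays after RNA amplification over 2 cycles. The median intensity of an array lay between 23.4 and 24.2, and arrays of a group correlated at 0.9913 to 0.9966 across probe sets on the log2 scale. For the sort label, the summed intensity of 14 stem and multipotent progenitor markers ran from 15598 to 16158 in controls, from 14216 to 14791 at day 7 and from 13808 to 14448 at day 14. Kit read 1691 to 1766 in controls, 1399 to 1526 at day 7 and 1510 to 1905 at day 14, so its day 7 arrays lay below every control. Ly6a, which encodes Sca-1, was not analysed here. The number of arrays limits the precision of every value below. In sorted bulk RNA, a change in the number of cells of a type and a change in RNA per cell cannot be told apart.

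The sequences around the starts of Cpa3, Mcpt8 and Hdc are shown because these were the members called in at least 1 comparison when the probe sets of each gene were averaged. Each stretch below is the RefSeq promoter window of assembly GRCm38.p6, 300 bases from 250 before to 50 after the transcription start, written 5′ to 3′ on the gene's own strand, which is the minus strand for all of them. Capitals mark a match to a GATA motif, the site class read by GATA1 and GATA2, 2 factors of the mast cell and basophil lineage.
Cpa3, chr3:20242132-20242431: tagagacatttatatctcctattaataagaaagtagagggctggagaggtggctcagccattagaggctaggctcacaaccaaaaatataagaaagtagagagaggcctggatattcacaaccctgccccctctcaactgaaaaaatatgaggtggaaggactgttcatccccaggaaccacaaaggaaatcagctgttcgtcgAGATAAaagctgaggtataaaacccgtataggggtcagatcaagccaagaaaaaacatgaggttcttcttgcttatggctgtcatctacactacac
Mcpt8, chr14:56085148-56085447: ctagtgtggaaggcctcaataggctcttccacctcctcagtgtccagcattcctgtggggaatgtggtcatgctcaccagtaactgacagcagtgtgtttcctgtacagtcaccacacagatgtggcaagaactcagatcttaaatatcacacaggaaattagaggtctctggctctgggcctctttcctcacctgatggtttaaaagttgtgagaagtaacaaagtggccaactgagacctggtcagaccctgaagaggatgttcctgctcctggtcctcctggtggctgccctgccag
Hdc, chr2:126618629-126618928: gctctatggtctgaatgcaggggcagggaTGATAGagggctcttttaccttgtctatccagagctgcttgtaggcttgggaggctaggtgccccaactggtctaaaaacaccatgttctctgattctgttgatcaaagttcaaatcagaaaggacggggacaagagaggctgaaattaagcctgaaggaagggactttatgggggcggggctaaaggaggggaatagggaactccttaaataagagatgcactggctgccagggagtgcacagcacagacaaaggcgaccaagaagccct

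A search covered 3 motifs on both strands of every window. The GATA motif was spelled AGATAA or, as accepted variants, TGATAA as well as AGATAG along with the spelling TGATAG. The E-box read by MITF was spelled CATGTG and alternatively CACGTG. The RUNX core was TGTGGT. The E-box CATGTG and the RUNX core can share letters, and GATA matches can share letters with each other, but no matches given here overlapped. The Cpa3 window held AGATAA at position -46 relative to the start and a RUNX core on the opposite strand at -73. The Mcpt8 window held no spelled GATA motif and 2 RUNX cores, at -188 and -139. The Hdc window held TGATAG at -221. Among the other genes, Ms4a2 had 3 GATA matches and Fcer1a had 1, while the 2 annotated starts of Il1rl1 had 5 and 1 and the first of the 2 starts of Hgf had 1. A GATA match occurred in 29.8% of all 32851 RefSeq mouse promoters of this length, an E-box match in 20.4% and a RUNX core in 16.8%, so these matches describe letters and not occupied sites.

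The genes did not move as a block. To be tested, a probe set had to exceed the 40th percentile of the array, which stood at 14.1 to 15.2, in 3 arrays or more, and it was called at an adjusted p below 0.05 in limma with Benjamini-Hochberg adjustment over all 27665 probe sets tested. Of the 9 tested probe sets, 1 was called at day 7 against control, where 3.39% of all tested probe sets were called (1.90% higher and 1.49% lower). At day 14 against control, 5 of 9 were called, 4 higher and 1 lower, where 44.4% of all tested probe sets were called (17.0% higher and 27.5% lower). Between day 14 and day 7, 2 of 9 were called, 1 in each direction, against 42.2% of all (16.5% higher and 25.7% lower). The count at day 14 is therefore near the share over the whole array. It was 2 without day 14 replicate 2 or without day 14 replicate 3 and 3 without control replicate 2, and the count at day 7 was 2 without control replicate 1. The median change of the 9 probe sets was 0.17, 0.37 and 0.09 on the log2 scale in the 3 comparisons, beside 0.0045, -0.0431 and -0.0234 over all tested.

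The share of calls that were higher depends on how arrays are scaled to each other. Over all tested probe sets at day 14 against control it was 38.2% with the values as deposited, 48.3% after quantile normalization and 61.6% with arrays set to the same 75th percentile. Between day 14 and day 7 the same shares were 39.2%, 49.1% and 64.1%, and the last scaling moved the median of all probe sets by 0.12 and 0.13 in these comparisons. For the member probe sets, that scaling gave 2 higher and 1 lower between day 14 and day 7 in place of 1 and 1.

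**Figure D1:**
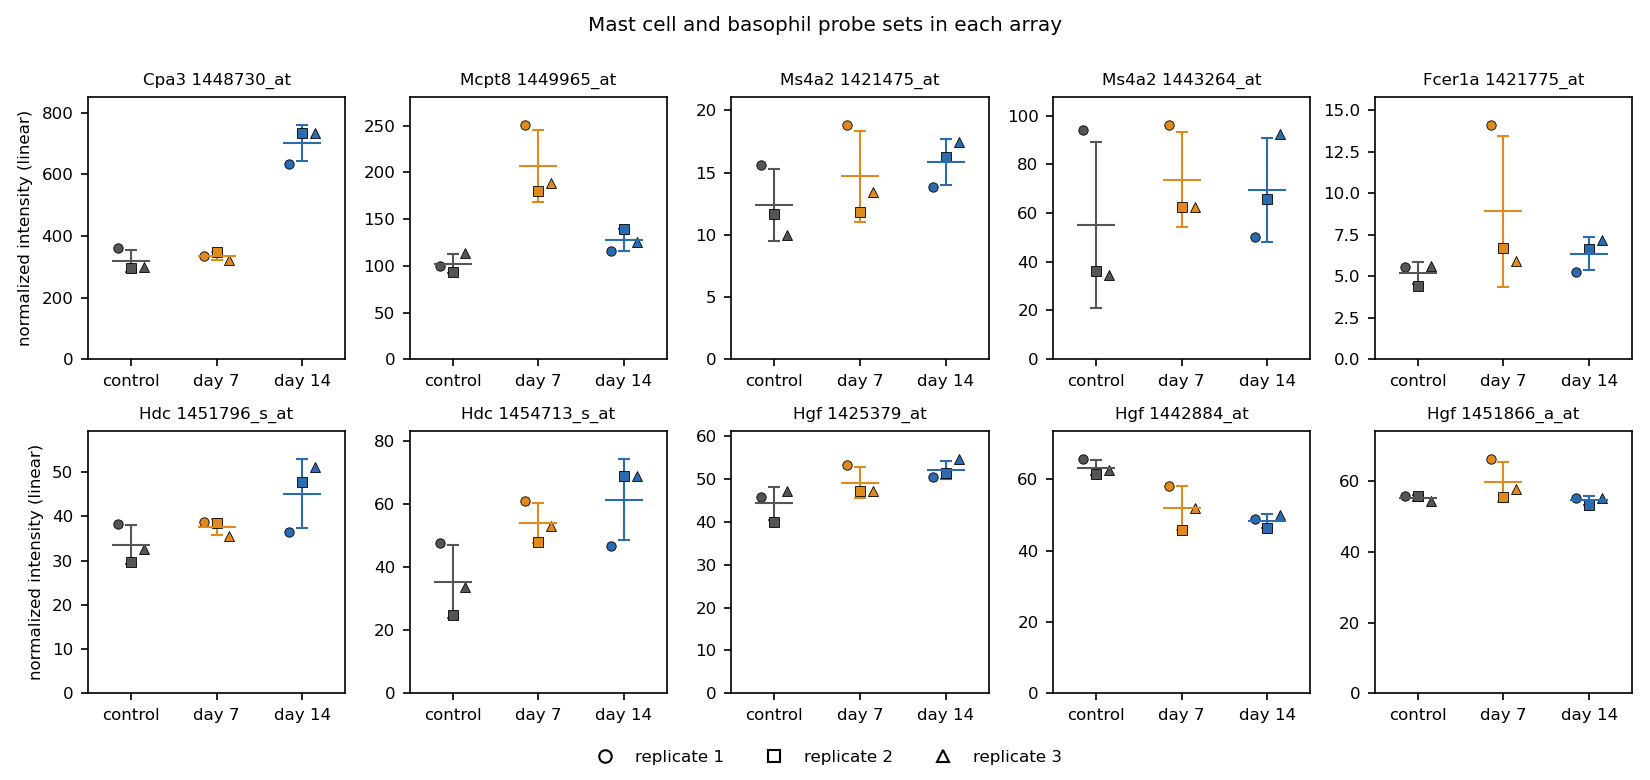
Normalized intensity (linear axis starting at 0, scaled per panel) of the 10 member probe sets in each of the 9 arrays. Symbols give the replicate, long bars the group mean and error bars the SD of 3 arrays. Cpa3 stands apart at day 14 (634 to 735 against 296 to 361 in controls), Mcpt8 at day 7 (179.8 to 251 against 93.4 to 114), and the Fcer1a probe set stays at or below 14.1.

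Cpa3, which encodes the carboxypeptidase A stored in mast cell granules, was level at day 7 and higher at day 14. Its probe set 1448730_at read 361, 296 and 301 in the controls, 337, 347 and 322 at day 7, and 634, 735 and 735 at day 14. All 3 day 14 arrays lay above every other array, and the day 7 arrays lay within the range of the controls. The group means were 319 ± 36.4, 335 ± 12.3 and 702 ± 58.3 (SD, n = 3). At day 14 the log2 change from control was 1.14 (SE 0.10, 2.20-fold, limma adjusted p = 3.59e-05). The rise fell between the stages: day 14 exceeded day 7 by 1.06 on the log2 scale (SE 0.10, 2.09-fold, adjusted p = 5.94e-05), while day 7 differed from control by 0.08 (95% interval -0.14 to 0.29, adjusted p = 0.705). The rise held in each of the 19 alternatives run, from 1.06 to 1.26 against control and from 0.9958 to 1.19 against day 7.

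Mcpt8, a serine protease of mouse basophils, had its peak at day 7. Probe set 1449965_at read 100.1, 93.4 and 114 in the controls, 251, 179.8 and 189 at day 7, and 116, 139.7 and 126 at day 14. Every day 7 array exceeded every array of the other groups, and the day 14 arrays lay just above the controls without overlap. The means were 102 ± 10.4, 206 ± 38.5 and 127 ± 11.8 (SD, n = 3). The rise at day 7 was 1.0005 on the log2 scale (SE 0.13, 2.00-fold, limma adjusted p = 0.00997), and it kept its call in 18 of 19 alternatives, the exception being the fit with no filter on dim probe sets (adjusted p = 0.0752). From day 7 to day 14 the intensity fell by 0.69 on the log2 scale (SE 0.13, adjusted p = 0.0024). At day 14 it differed from control by 0.31 (SE 0.13, adjusted p = 0.0774), a value that was called after quantile normalization (0.44, adjusted p = 0.0177), with the same 75th percentile (0.43, adjusted p = 0.0175), with only these 2 groups in the fit (adjusted p = 0.0481) and without day 7 replicate 1 (adjusted p = 0.0309).

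The proteases Cpa3 and Mcpt8 thus reached their highest measured values at different stages. For each of them the difference between day 14 and day 7 passed the test, with opposite signs.

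**Figure D2:**
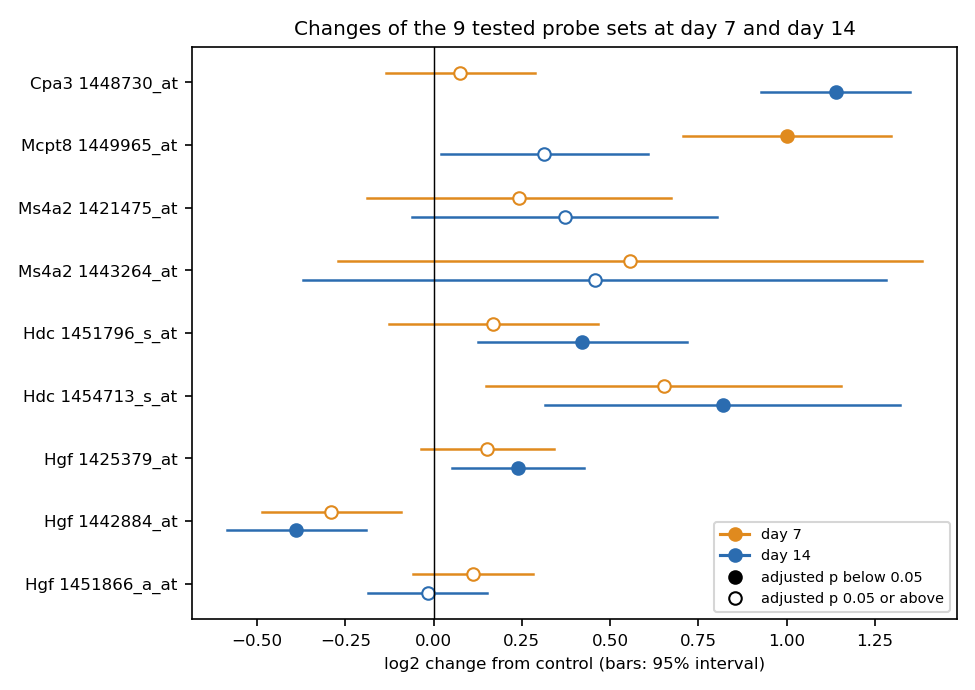
Log2 change from control of the 9 tested member probe sets at day 7 and at day 14, with 95% intervals from the limma fit; filled points passed an adjusted p of 0.05. Cpa3 (1.14) passed at day 14, Mcpt8 (1.0005) at day 7, and the Hgf probe sets 1425379_at and 1442884_at passed at day 14 on opposite sides of 0 (0.24 and -0.39).

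For the IgE receptor, the gamma chain rose at day 14 while the beta chain was not called and the alpha chain could not be tested. Ms4a2, the beta chain, which amplifies the signal of the receptor, had 2 probe sets. Probe set 1443264_at read 94.3, 36.3 and 34.4 in the controls, 96.1, 62.5 and 62.5 at day 7, and 50.1, 65.6 and 92.5 at day 14. Control replicate 1 lay near the highest array of each leukemia group, so the groups overlapped. Its log2 change was 0.56 at day 7 (SE 0.37, limma adjusted p = 0.427) and 0.46 at day 14 (SE 0.37, adjusted p = 0.337). Probe set 1421475_at was dimmer, at 15.6, 11.7 and 9.96, then 18.8, 11.9 and 13.4, then 13.9, 16.3 and 17.4, and it passed the 40th percentile in only 1 control, 1 day 7 and 2 day 14 arrays. It differed from control by 0.24 at day 7 (adjusted p = 0.522) and 0.37 at day 14 (adjusted p = 0.142). Without control replicate 1, both Ms4a2 probe sets were called higher at day 14, by 0.93 (adjusted p = 0.0195) and 0.55 (adjusted p = 0.0427), so this array decides their call. The same array was also the highest control in several erythroid markers. Car1, a carbonic anhydrase, read 672 there against 87.0 and 73.9 in the other controls, and the factor Klf1 155 against 36.1 and 44.8. Ermap read 90.4 against 25.9 and 27.1, the water channel Aqp1 167 against 54.4 and 48.0, and Epor 74.5 against 42.1 and 45.1. Other markers of the list did not share this. Tfrc was lowest there (518 against 547 and 537), and Car2 lay between the other controls (3961 against 4130 and 3652). The summed intensity of 10 erythroid markers ran from 4451 to 5666 in controls, from 4565 to 4869 at day 7 and from 4029 to 4807 at day 14, with Hba-a1, Alas2 and Rhag dim in every array. Of these dim markers, Rhag was the highest control in replicate 1, and Hba-a1 and Alas2 were the lowest. Most of the sum came from Car2 (3104 to 4130 over the 9 arrays). The part of erythroid cells in the Ms4a2 values was not tested.

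Fcer1a, the chain that binds IgE itself, was dim throughout. Its probe set 1421775_at read 5.58, 4.40 and 5.61 in the controls, 14.1, 6.71 and 5.90 at day 7, and 5.27, 6.66 and 7.19 at day 14. All 9 values lay below the 40th percentile of their array, so it was not tested, and day 7 replicate 1 was the highest. Fcer1g, the gamma chain that other Fc receptors share, was called higher at day 14, by 0.50 (SE 0.08, adjusted p = 0.00128), from 334 to 381 in the controls to 505 to 516.

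Hdc, the decarboxylase that makes histamine from histidine, was higher at day 14 in both of its probe sets. Probe set 1454713_s_at read 47.7, 25.0 and 33.6 in the controls, 60.8, 48.0 and 53.1 at day 7, and 46.5, 68.7 and 68.7 at day 14. The day 7 arrays lay just above all controls, whereas at day 14 replicate 1 fell below control replicate 1 and replicates 2 and 3 lay above every other array. The log2 change was 0.82 at day 14 (SE 0.23, 1.76-fold, limma adjusted p = 0.015) and 0.65 at day 7 (SE 0.23, adjusted p = 0.135, and 0.89 with adjusted p = 0.0497 without control replicate 1). The day 14 call was lost without day 14 replicate 2 (adjusted p = 0.052), without day 14 replicate 3 (0.0526) and with no filter on dim probe sets (0.0739).

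Hdc probe set 1451796_s_at moved less. It read 38.3, 29.6 and 32.7 in the controls, 38.8, 38.4 and 35.5 at day 7, and 36.4, 47.7 and 51.2 at day 14. Again day 14 replicate 1 overlapped with the controls and the other two did not. The change at day 14 was 0.42 (SE 0.13, limma adjusted p = 0.0272), and at day 7 it was 0.17 (adjusted p = 0.514). The call at day 14 was lost in 7 of 18 alternatives, with adjusted p from 0.0519 to 0.0942: with no filter, with the replicate block, with only these 2 groups, and without control replicate 2, control replicate 3, day 14 replicate 2 or day 14 replicate 3. Between day 14 and day 7 the probe sets differed by 0.17 (adjusted p = 0.578) and 0.25 (adjusted p = 0.155); the second was called without day 14 replicate 1 (0.40, adjusted p = 0.022) and with the same 75th percentile (0.38, adjusted p = 0.0299).

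Hgf, hepatocyte growth factor, is the ligand of the receptor Met, and its 3 probe sets went different ways. Probe set 1442884_at read 65.5, 61.4 and 62.6 in the controls, 58.0, 45.8 and 51.8 at day 7, and 48.7, 46.2 and 49.9 at day 14. All leukemia arrays lay below all controls. The change was -0.29 at day 7 (SE 0.09, limma adjusted p = 0.0974), called with array weights (-0.38, adjusted p = 0.0198), and at day 14 it fell by 0.39 on the log2 scale (SE 0.09, adjusted p = 0.00595). Probe set 1425379_at read 45.7, 39.95 and 47.0, then 53.1, 47.0 and 47.0, then 50.5, 51.3 and 54.5, and its day 14 arrays lay just above the controls. Its rise of 0.24 at day 14 (SE 0.08, adjusted p = 0.0423) was lost when any of control replicates 1 and 2, day 7 replicates 2 and 3 or day 14 replicates 1, 2 and 3 was left out (adjusted p = 0.054 to 0.137). It was also lost with no filter on dim probe sets (adjusted p = 0.0717), with a trended robust variance prior (0.0627) and with only these 2 groups in the fit (0.0636). Probe set 1451866_a_at read 55.7, 55.7 and 54.4 in the controls, 66.2, 55.6 and 57.8 at day 7, and 55.4, 53.3 and 55.4 at day 14, so that the controls overlapped with both leukemia groups. Its change at day 14 of -0.02 (95% interval -0.19 to 0.15, adjusted p = 0.874) turned positive under both other scalings.

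With the 3 Hgf probe sets averaged, the gene differed from control by -0.0553 at day 14 (limma adjusted p = 0.534). Fitted per gene in that way, Cpa3 (1.14) and Hdc (0.62, adjusted p = 0.0116) were the members called at day 14.

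Replicates of a group kept a similar order across these probe sets, as was noticed after the values were seen. Control replicate 1 was the highest control in 7 of 10 member probe sets, against 25.8% of all tested probe sets. Day 7 replicate 1 was the highest of its group in 9 of 10, against 36.2%, and day 14 replicate 1 was the lowest of its group in 8 of 10, against 38.3%. The 10 probe sets stand for 6 genes, so they are not independent of each other. They include the dim Fcer1a probe set, whereas the shares cover tested probe sets only. The summed intensity of 6 eosinophil markers had the same order, with 174 in control replicate 1 against 122 and 121, 168 in day 7 replicate 1 against 123.5 and 117, and 165 in day 14 replicate 1 against 193 and 193. Most of that sum came from Siglecf (73.4 to 144 over the 9 arrays), and the markers did not all share the order: Il5ra was lowest of its group in day 7 replicate 1 (14.8) and highest in day 14 replicate 1 (17.5). Of those markers, Epx, Prg3 and Ccr3 lay below the 40th percentile in all 9 arrays, and 3 were tested: Prg2 (log2 change at day 14 of 0.98, limma adjusted p = 0.093), Siglecf (0.44, adjusted p = 0.0686) and Il5ra (0.06, adjusted p = 0.552). Sums of other lists shared parts of the order. The neutrophil sum was highest of its group in day 7 replicate 1 (9065) and lowest in day 14 replicate 1 (8211), but its highest control was replicate 3 (7581). The monocyte and macrophage sum was lowest in day 14 replicate 1 (3269). The erythroid sum was highest in control replicate 1 (5666), but lowest in day 7 replicate 1 (4565) and highest in day 14 replicate 1 (4807). The part of other cells in the order of the replicates was not tested.

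The genes known to work beside the members were described from 11 lists with 136 genes, each gene by its brightest probe set; 124 had a probe set and 101 were tested. At day 14 against control, 33 rose, 9 fell and the remaining 59 missed the threshold (limma adjusted p of 0.05), and the median change was 0.13 beside -0.0431 over all probe sets. The called share was 41.6% of the list genes, near the 44.4% over all tested probe sets (17.0% higher and 27.5% lower). Between day 14 and day 7, 38 rose, 7 fell and 56 missed the threshold; the median was 0.15 beside -0.0234, and 44.6% were called beside 42.2% of all. At day 7 against control 2 rose and 0 fell in limma, with a median of -0.03, where 3.39% of all tested probe sets were called; at an unadjusted p below 0.05 the counts were 7 and 10. The split at day 14 against control was 39 and 8 after quantile normalization and 54 and 7 with the same 75th percentile, and at day 7 both scalings gave 2 and 1.

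**Figure D3:**
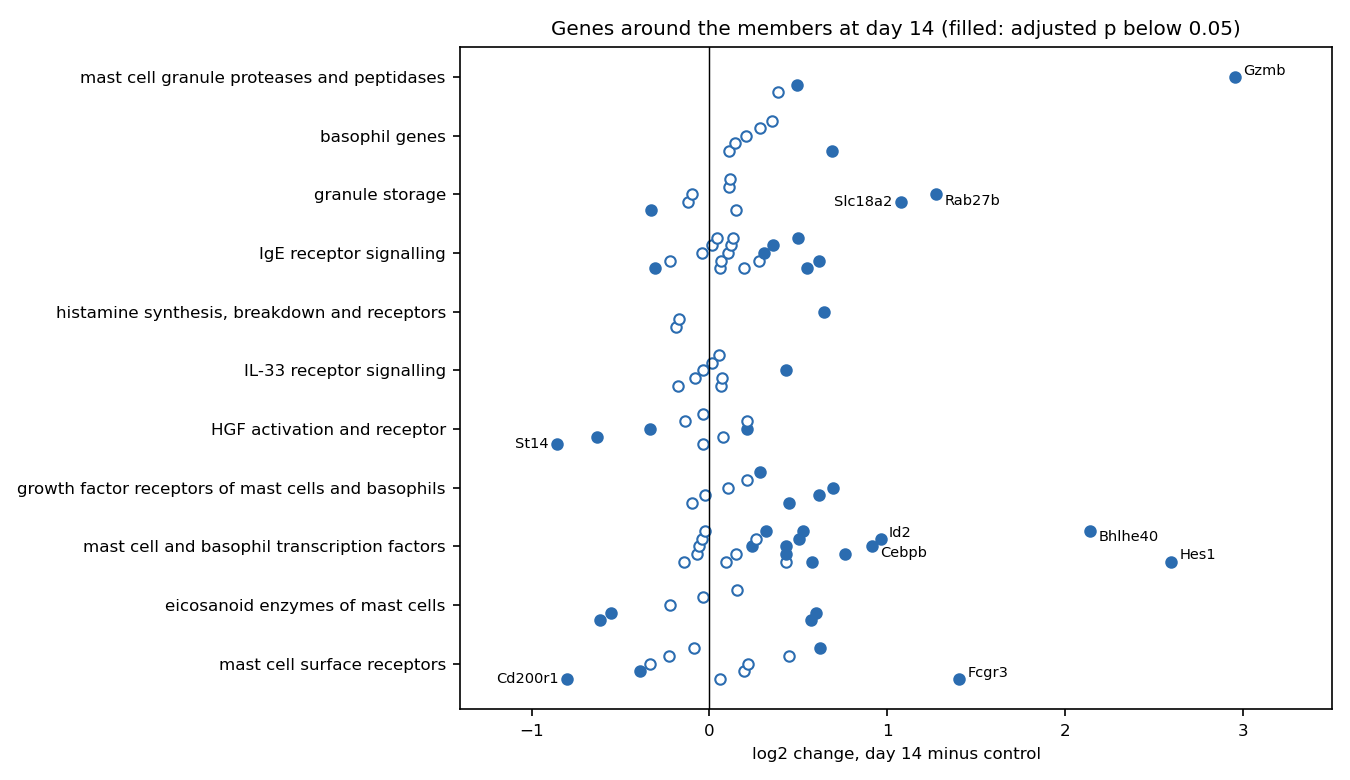
Log2 change from control at day 14 (x axis) of the 101 tested list genes, by list (y axis; vertical offsets within a list only separate points). Filled points passed an adjusted p of 0.05, and names mark changes of at least 0.8 in size, from Cd200r1 (-0.80) and St14 (-0.86) to Hes1 (2.60) and Gzmb (2.95).

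Among 12 mast cell granule proteases and peptidases, 10 had a probe set and 3 passed the filter. The mast cell tryptases and chymases were dim: Tpsb2 read 8.61 to 11.5 over the 9 arrays, Tpsab1 7.48 to 11.95, Mcpt4 6.02 to 8.64 and Cma1 6.78 to 16.1. Of the 3 tested, 2 rose at day 14 (66.7% called, beside 44.4% of all tested probe sets). Gzmb, a cytotoxic granule protease that mast cells share with lymphocytes, read 37.6 to 90.1 in the controls, 55.7 to 77.6 at day 7 and 343 to 469 at day 14, a rise of 2.95 on the log2 scale (SE 0.30, limma adjusted p = 8.39e-05). Dpp4, a membrane peptidase, rose by 0.49 (adjusted p = 0.000627).

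Of 11 basophil genes, 6 were tested. At day 14 against control 16.7% of them were called, beside 44.4% of all tested probe sets. Between the stages 66.7% were called, beside 42.2% of all. Ccl3, a chemokine, rose by 0.69 at day 14 (SE 0.18, limma adjusted p = 0.0131) and by 0.52 between the stages (adjusted p = 0.0425). Both calls were lost with no filter on dim probe sets (adjusted p = 0.064 and 0.14). The second call was also lost by leaving out any array of either stage other than day 7 replicate 3 (adjusted p = 0.062 to 0.14). Between day 14 and day 7, Ifitm1 rose by 0.31 (adjusted p = 0.00539) and the integrin chain Itga2 by 0.29 (adjusted p = 0.0127, and 0.055 without day 7 replicate 2). Cd200r3, an activating receptor of basophils and mast cells, read 3.83 to 4.72 in all arrays and was not tested. Prss34, another basophil protease, was not analysed here.

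Of the 8 tested granule storage genes, 2 rose and 1 fell at day 14 (37.5% called, beside 44.4% of all tested probe sets). Slc18a2, the transporter that loads histamine and other amines into vesicles, read 374, 366 and 396 in the controls, 284, 323 and 258 at day 7, and 901, 865 and 650 at day 14. Its day 7 arrays were the lowest and its day 14 arrays the highest, with no overlap among the groups. The change was -0.40 at day 7 (limma adjusted p = 0.11), 1.07 at day 14 (SE 0.13, adjusted p = 0.000192) and 1.47 between the stages (adjusted p = 5.39e-05). Rab27b, a GTPase of granule docking, read 76.1 to 99.2 in the controls and 206 to 222 at day 14, a rise of 1.28 (SE 0.10, adjusted p = 2.59e-05), while its relative Rab27a fell by 0.33 (adjusted p = 0.00698). Srgn, the proteoglycan core on which granule proteases are packed, differed from control by 0.15 (adjusted p = 0.0612).

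For histamine, Aoc1, a diamine oxidase that breaks it down, rose by 0.64 at day 14 (SE 0.14, limma adjusted p = 0.00441), from 18.9 to 21.1 in the controls to 26.4 to 39.4. Hnmt, the methyltransferase that inactivates histamine inside cells, differed by -0.17 (adjusted p = 0.244). These were 2 of the 3 genes tested of a list of 6. At day 14, 33.3% of the 3 were called, beside 44.4% of all tested probe sets.

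Signalling genes downstream of the IgE receptor held 5 that rose and 1 that fell among 17 tested at day 14, with a median of 0.12. That is 35.3% called, beside 44.4% of all tested probe sets. The adaptors Gab2 and Lat2 rose by 0.55 (limma adjusted p = 0.000561) and 0.61 (adjusted p = 0.00101). The kinase Btk fell by 0.31 (adjusted p = 0.00262) at day 14 and by 0.27 against day 7 (adjusted p = 0.00495, and 0.075 with the same 75th percentile). Pik3cd, a lipid kinase subunit, rose by 0.53 between the stages (adjusted p = 0.00253).

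Around the IL-33 receptor, 1 of 8 tested genes rose at day 14 (12.5% called, beside 44.4% of all tested probe sets). That gene was Traf6, an adaptor shared with Toll-like receptors, with a change of 0.43 (SE 0.07, limma adjusted p = 0.00079). Il1rap, the partner chain of the receptor, differed by 0.07 (adjusted p = 0.533), and Il33, its ligand, read 2.18 to 3.67 in all arrays and was not tested. Map3k7, a kinase downstream of Traf6, fell by 0.235 against day 7 (adjusted p = 0.0249), a call lost under both other scalings (adjusted p = 0.25 and 0.3) and without day 7 replicate 1 or 2 or day 14 replicate 2 or 3 (adjusted p = 0.069 to 0.087).

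In the list of HGF activation and its receptor, 1 of 9 tested genes rose and 3 fell at day 14. The called share of 44.4% equals that over all tested probe sets. St14, a membrane protease that cuts pro-HGF into its active form, read 79.4 to 96.8 in the controls, 80.3 to 92.8 at day 7 and 46.3 to 51.9 at day 14, and it fell by 0.86 on the log2 scale (SE 0.09, limma adjusted p = 0.000135). Hgfac, the secreted HGF activator, fell by 0.63 (adjusted p = 0.00481). Against day 7 it fell by 0.43 (adjusted p = 0.0316), a call lost when any of the 3 day 7 arrays or day 14 replicate 2 or 3 was left out (adjusted p = 0.056 to 0.1). That call was also lost with the same 75th percentile (adjusted p = 0.12) and with no filter on dim probe sets (0.1). An offset of 32 in place of the floor (0.053) and a fit of only these 2 groups (0.054) ended it too. Cbl, the ubiquitin ligase that turns Met over, rose by 0.21 at day 14 (adjusted p = 0.022), and this call was lost without control replicate 1, control replicate 2 or day 14 replicate 1 (adjusted p = 0.057 to 0.061); between the stages it rose by 0.25 (adjusted p = 0.00974). Gab1, an adaptor of Met, rose by 0.28 between the stages (adjusted p = 0.0338), which was lost by leaving out any day 7 array or day 14 replicate 1 or 2 (adjusted p = 0.06 to 0.11). The Gab1 call was also lost with no filter on dim probe sets (adjusted p = 0.072) and with the replicate block (0.052). Met itself ranged from 42.2 to 107 over the 9 arrays, with a change of -0.04 at day 14 (SE 0.32, adjusted p = 0.933).

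Growth factor receptors of the lineage rose in 4 of 8 tested cases at day 14, and 0 fell, where 44.4% of all tested probe sets were called and 17.0% were higher. Il4ra, the IL-4 receptor chain, rose by 0.62 (SE 0.09, limma adjusted p = 0.000535) and Csf2rb, the chain shared by the receptors for IL-3, IL-5 and GM-CSF, by 0.45 (SE 0.08, adjusted p = 0.00151). Csf2rb2, the mouse beta chain particular to the IL-3 receptor, read 82.3 to 124 in the controls, 68.7 to 76.2 at day 7 and 155 to 193 at day 14, and it rose by 1.24 between the stages (SE 0.14, adjusted p = 0.000153). Kit, the stem cell factor receptor on which mast cells depend, differed from control by -0.24 at day 7 (SE 0.09, adjusted p = 0.147). At day 14 Kit differed from control by -0.03 (SE 0.09, adjusted p = 0.819).

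Transcription factors of mast cells and basophils held 12 that rose among 21 tested at day 14, with a median of 0.43; the other 9 did not pass. That is 57.1% called, where 44.4% of all tested probe sets were called and 17.0% were higher. The list was chosen with earlier results of these data known, so this difference is a description only. Of the 12, Spi1 (0.24, limma adjusted p = 0.0293) lost its call in 5 of 19 alternatives. Hes1, a Notch target, read 195, 126 and 122 in the controls, 262, 299.5 and 400.3 at day 7, and 1086, 795 and 764 at day 14. Bhlhe40 read 122, 82.8 and 83.2, then 203, 165 and 202, then 508, 399.6 and 355. Both increased from group to group with no overlap, by 2.60 (SE 0.22, limma adjusted p = 3.54e-05) and 2.14 (SE 0.17, adjusted p = 3.31e-05) at day 14.

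At day 7 these were the 2 list genes called, with Hes1 at 1.13 (limma adjusted p = 0.0261) and Bhlhe40 at 1.0031 (adjusted p = 0.0202). Hes1 lost that call when any of control replicates 2 and 3 or the 3 day 7 arrays was left out (adjusted p = 0.053 to 0.094). Bhlhe40 lost it when control replicate 3, day 7 replicate 1 or day 7 replicate 3 was left out (adjusted p = 0.063 to 0.081). With no filter on dim probe sets both lost it (adjusted p = 0.14 for Hes1 and 0.12 for Bhlhe40). With only these 2 groups in the fit, Hes1 lost it (0.057). Leaving out control replicate 3 brought the count of list genes called at day 7 to 0, as did leaving out day 7 replicate 1 or day 7 replicate 3, and the count was 1 when day 7 replicate 2 was left out; in the 3 fits with a count of 0, limma gave 7, 4 and 4 higher and 6, 6 and 7 lower at an unadjusted p below 0.05.

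Among the lineage regulators, Gata2 and Cebpa rose and Gata1 and Mitf did not pass. Gata2, which basophil and mast cell progenitors require, rose by 0.43 at day 14 (SE 0.09, limma adjusted p = 0.00508), and Cebpa, a factor of the basophil branch, by 0.52 (SE 0.10, adjusted p = 0.00205). Runx1, a factor that binds the RUNX core, rose by 0.76 (SE 0.09, adjusted p = 0.000186). Gata1 read 203 in control replicate 1 against 91.7 and 86.3 in the other controls, and its change of 0.43 (SE 0.28) did not pass (adjusted p = 0.23). Mitf, the factor of mature mast cells, differed by -0.07 (SE 0.09, adjusted p = 0.531).

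Eicosanoid enzymes were split at day 14, with 2 higher and 2 lower of 7 tested (57.1% called, beside 44.4% of all tested probe sets). Alox5, which starts leukotriene synthesis, rose by 0.60 (SE 0.16, limma adjusted p = 0.0136, and 0.063 with no filter on dim probe sets). Ltc4s, which makes leukotriene C4, fell by 0.61 (SE 0.15, adjusted p = 0.00934). Pla2g4a, the phospholipase that releases arachidonic acid, fell by 0.55 (SE 0.11, adjusted p = 0.00299). Ptgs2, the inducible cyclooxygenase, rose by 0.57 (adjusted p = 0.0181), a call lost when control replicate 2, day 14 replicate 1 or day 14 replicate 2 was left out (adjusted p = 0.057 to 0.066).

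Of the mast cell surface receptors, 2 rose and 2 fell among 11 tested at day 14 (36.4% called, beside 44.4% of all tested probe sets). Fcgr3, an activating IgG receptor that uses the gamma chain, read 32.2 to 50.3 in the controls, 42.1 to 50.3 at day 7 and 82.5 to 115 at day 14, a rise of 1.41 (SE 0.18, limma adjusted p = 0.000269). Cd300a, an inhibitory receptor, rose by 0.62 (adjusted p = 0.000205), and Cd200r1, also inhibitory, fell by 0.80 (SE 0.11, adjusted p = 0.000348). Milr1, an inhibitory receptor of mast cells, fell by 0.39 (adjusted p = 0.0332). This call was lost under both other scalings (adjusted p = 0.1 and 0.094) and with no filter on dim probe sets (0.1). Leaving out control replicate 1, control replicate 3 or day 14 replicate 1 ended it too (adjusted p = 0.062 to 0.11).

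Genes whose pattern over the 9 arrays was most like that of a called member were found by the root mean square distance between log2 intensities, each centred on its own mean, among 11976 genes with a single symbol. Nearest to Cpa3 were Ufsp1, a protease of the UFM1 pathway (0.10), Itga2b, the platelet integrin chain (0.11), and Vwf, von Willebrand factor (0.11). Itga2b read 231 to 262 in the controls, 254 to 287 at day 7 and 486 to 570.2 at day 14. Vwf read 39.0 to 48.1, then 48.0 to 49.7, then 104 to 108. Both were picked for likeness to Cpa3 over these same arrays, so their step between day 7 and day 14 follows from that choice. Over all tested probe sets, 16.5% were called higher between these stages. The nearest genes to Mcpt8 were Cenpa, the centromere histone (0.19), Fam83d, a spindle protein (0.22), and Igk, immunoglobulin kappa (0.22). Cenpa read 254 to 283 in the controls, 419 to 476 at day 7 and 279.98 to 320.1 at day 14. Igk read 12.0 to 13.5, then 19.4 to 28.1, then 17.5 to 20.8. Its day 14 arrays thus overlapped with those of day 7 and stayed above the controls. For Hdc they were Sowahc (0.17), the pseudokinase Trib1 (0.17) and the lysosomal enzyme Gla (0.20). These distances are descriptions over 9 arrays that share their 3 groups.

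**Figure D4:**
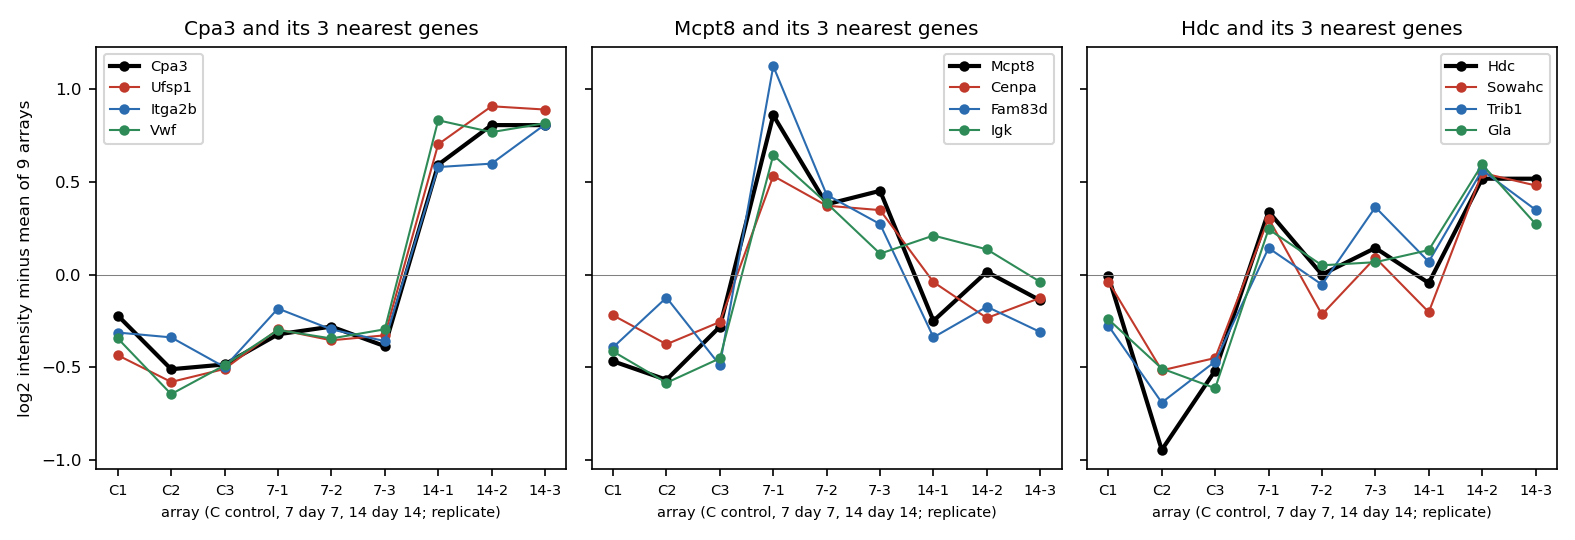
Log2 intensity minus its mean over the 9 arrays for Cpa3, Mcpt8 and Hdc (black, brightest probe set) and the 3 genes nearest to each; the x axis lists the arrays by group and replicate, and lines only join the points of a gene. Cpa3 steps up at day 14 with Ufsp1, Itga2b and Vwf, while Mcpt8 peaks at day 7 with Cenpa and Fam83d. The nearest genes were picked for such likeness over these same arrays. Igk rises at day 7, and its day 14 arrays overlap with those of day 7.

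Markers of other cell types moved beside these genes. Of 12 megakaryocyte and platelet markers tested, 8 rose at day 14, and their summed intensity ran from 2176 to 2417 in controls, 2368 to 2443 at day 7 and 3453 to 3809 at day 14, the step at which Cpa3 rose. Of 10 monocyte and macrophage markers, 7 rose and 1 fell, with sums of 1589 to 2726, 1907 to 2899 and 3269 to 5054; the number that rose was 4 if control replicate 2 was left out, and also 4 without either of day 14 replicates 2 and 3. Among 9 neutrophil markers tested, 3 rose and 2 fell at day 14. When an array was left out, 2 to 4 of them rose and 1 to 2 fell. The neutrophil sums over 12 markers were 6225 to 7581, 7327 to 9065 and 8211 to 10348, with Lcn2 and Mmp8 dim in every array. These counts stand beside the 44.4% of all tested probe sets called at day 14 (17.0% higher and 27.5% lower).

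Lymphoid and stromal markers moved at day 14 too. Of 6 T and NK cell markers tested, 4 rose and 1 fell, and 3 to 4 rose when an array was left out. Their sums over 9 markers were 809 to 933 in controls, 1019 to 1056 at day 7 and 849.6 to 895 at day 14, with Cd3g, Cd3d and Ncr1 dim in every array. Most of that sum came from Nkg7 (485 to 824 over the 9 arrays), the marker that fell, by 0.49 on the log2 scale. Of the 4 that rose, Cd28 (2.38) and Bcl11b (1.59) changed most, so the sum does not follow them. Of 7 B cell markers, 4 rose and 1 fell (sums of 327 to 394, 385 to 519 and 436 to 601; Ms4a1 dim). Of 8 markers of stroma and endothelium, 4 rose and 1 fell (1179 to 1235, 1061 to 1146 and 1777 to 1949; Col1a1, Cdh5 and Pdgfra dim). Of 5 markers of innate lymphoid cells of group 2, 2 rose (461 to 575, 527 to 648 and 703 to 785; Il2ra, Klrg1, Il5, Il13 and Arg1 dim), and 1 rose if control replicate 3 was left out, or either of day 14 replicates 1 and 3. Of 14 stem and multipotent progenitor markers, 0 rose and 4 fell (0 to 1 and 3 to 4 when an array was left out).

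At day 7, the stage of the Mcpt8 peak, 3.39% of all tested probe sets were called (1.90% higher and 1.49% lower). Calls went to 2 of 6 tested T and NK cell markers and 2 of 7 B cell markers. They also went to 1 of 9 neutrophil markers and 1 of 12 megakaryocyte and platelet markers, and to no marker of the other lists. The 6 marker genes called were all higher, and they are named here after their values were seen. They were the T cell genes Cd28 (1.45, limma adjusted p = 0.00701) and Bcl11b (0.85, adjusted p = 0.0168), the pre-B cell genes Vpreb1 (1.09, adjusted p = 0.0242) and Igll1 (0.87, adjusted p = 0.025), the neutrophil elastase Elane (1.40, adjusted p = 0.0186) and the platelet gene Gp1bb (0.52, adjusted p = 0.0186). Each array was then left out in turn, a step added after these values were seen: Cd28 kept its call in all 9 fits, while each of the other 5 lost it in at least 3 (adjusted p = 0.05 to 0.095). Bcl11b and Gp1bb lost it if any day 7 array was left out, and Elane if any day 7 array or control replicate 3 was. Leaving out day 7 replicate 2 or 3 ended the calls of Vpreb1 and Igll1, as did control replicates 1 and 2 for Vpreb1 and control replicate 3 for Igll1. The part of such cells in the changes of Cpa3, Mcpt8 and Hdc was not tested.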

How the data were processed

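The authors deposited 1 table of normalized intensities on a linear scale, 1 value per probe set for each of 9 arrays, 3 per group. Per the series' design text and the labels, RNA was amplified over 2 cycles and signals were normalized with Affymetrix software; 51.64% of probe sets hold equal values in at least 2 arrays, which the sources used here do not account for, so the scaling was varied. Amplification over 2 cycles favours transcript ends, and probe sets of a gene can differ for that reason.

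Gene names came from the platform annotation, in which 34945 probe sets had 1 symbol, 932 several and 9160 none, and only the first kind names a gene. Against the RefSeq table of GRCm38.p6, 0 symbols changed. Intensities below the 20th percentile (5.81) were set to that value ahead of the log2 transform. Each of 27665 probe sets above the 40th percentile of its array in at least 3 arrays was fitted with limma 3.58.1 in R 4.3.3 (lmFit and eBayes, 9 arrays, no covariates, two-sided), with calls made below an adjusted p (Benjamini-Hochberg) of 0.05. The fit was tested on simulated data.

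The members and the gene lists were chosen with earlier results of these data known. Named genes were all members, up to 2 called genes per list and direction with the smallest adjusted p, genes paired with a member by role (Fcer1g, Il1rap, Il33, Met, Kit, Gata1, Gata2, Mitf, Cebpa, Srgn, Slc18a2, Hnmt, Prss34, Cma1, Mcpt4, Tpsb2, Cd200r3), and the 3 genes most alike to each called member. Marker lists of other cells were read as sums of intensities and counts. Alternatives varied the scaling, floor, filter, unit of the test, block, variance prior, array weights, groups in the fit and call rule, and left out each array in turn; for the marker counts, the fits without an array were added after the values were seen.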

Additional observations from a re-analysis of the deposited data

Results flagged for a closer look

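The changes of 2 genes from control differed between the stages by the test of day 14 against day 7, whose means use no control array. For Cpa3 1448730_at, day 14 minus day 7 was 1.06 on the log2 scale (limma adjusted p = 5.94e-05), higher in 3 of 3 day 14 arrays than in any day 7 array. For Mcpt8 1449965_at the same difference was -0.69 (adjusted p = 0.0024), lower in 3 of 3 day 14 arrays than in any day 7 array. The groups of 3 arrays are too small for a test of single outlying arrays.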

How the results depend on the processing

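Of 507 values of member probe sets under alternatives, 462 kept their direction and their side of the threshold, 21 lost a call, 10 gained a call and 14 turned direction. The count of member probe sets called at day 7 (1 as reported) was 0 with no filter on dim probe sets (2 higher and 1 lower at an unadjusted p below 0.05) and 2 with array weights, and 1 to 2 when an array was left out. At day 14 the count (5) was 2 with no filter, 1 with a fold change of at least 2, 2 with the brightest probe set per gene and 2 with each gene's probe sets averaged, and 2 to 6 when an array was left out. Between day 14 and day 7 the count (2) was 1 with the fold minimum. List genes called at day 7 (2) were 0 with no filter (4 higher and 12 lower unadjusted), 5 with a trended variance prior, 6 with array weights and 1 with only those 2 groups, and 0 to 3 when an array was left out; with the fold minimum, 6 of 42 were called at day 14 and 7 of 45 between the days.

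Directions turned for uncalled values: with array weights at day 7, Cpa3 -0.0064 and Ms4a2 -0.0594 (1421475_at) and -0.0367 (1443264_at), and for 1443264_at -0.0058 at day 14 and 0.0309 between the days; for Hgf 1451866_a_at at day 14, 0.0872 after quantile normalization, 0.1045 with the same 75th percentile and -0.0285 to 0.0022 when an array was left out; and between the days with the same 75th percentile, Ms4a2 1443264_at 0.0305, Hgf 1442884_at 0.0338 and Hgf 1451866_a_at 0.004. Leaving out an array gave -0.0104 to 0.3218 for Ms4a2 1421475_at and -0.3313 to 0.1108 for 1443264_at between the days. For changes not due to fewer probe sets, arrays or genes tested, the cause was not tested.

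Same-numbered arrays of different groups had deviations from their group means that correlated at -0.128 to 0.109. Differently numbered arrays correlated at -0.141 to 0.172, so arrays that share a number were no more alike than others. These correlations cannot show whether same-numbered samples were collected or processed together. With the replicate block, 1, 4 and 2 member probe sets and 2, 43 and 43 list genes were called in the 3 comparisons. Low signal limits Fcer1a, which was not tested, and Ms4a2 1421475_at.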
